A study of Rattus norvegicus with 24 samples.

Results

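The genes of the Wnt pathway were examined in lung RNA of 24 male F344/DuCrl rats, bought at 3 months of age and sequenced after a whole-body inhalation study of 29 weeks. The members were all genes whose symbol marks a Wnt ligand, a frizzled or Lrp5/6 receptor, a secreted antagonist of the Sfrp, Dkk or Notum kind, an R-spondin or its partners Lgr4 to Lgr6, Znrf3 and Rnf43, or the transducers Axin, Daam, Tcf7 and Lef1. The symbols gave 58 members among 30043 gene lines, and 33 of them passed the filter on low counts, among 13322 genes that did. The combined group breathed cigarette smoke for 3 hours on Tuesdays and Fridays (45 mg/m3 in week 1 and 80 mg/m3 later) and also Min-U-Sil5 crystalline silica at 15 mg/m3, 6 hours a day for 5 days in week 3. The silica group received that silica and otherwise air. The smoke group received smoke that began at 40 mg/m3, with air in place of silica in week 3. The air group received air throughout. Each group held 6 rats, and RNA came from a piece of whole lung.

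Wnt proteins are secreted lipid-bearing ligands that bind frizzled receptors together with Lrp5 or Lrp6, which stops the destruction of beta-catenin and lets it act with the Tcf and Lef factors on target genes. Other Wnts act without beta-catenin, through planar polarity and calcium signalling, where the Daam formins link Dishevelled to the actin skeleton. R-spondins and their Lgr receptors keep frizzled receptors at the membrane by holding back the ligases Rnf43 and Znrf3, and Axin2 is a widely used readout of beta-catenin activity. In the lung the pathway is known for its part in branching, in the renewal of alveolar type 2 cells and in scarring.

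Levels are counts-per-million values (CPM), scaled to each library's own total. Total counts ran from 1084815 to 4687805 in 22 libraries, but were 280484 in silica 4 and 21629 in smoke 2, where erythroid markers summed to 549494 CPM and 1 count is worth 46.2 CPM. Levels of the smoke group are therefore given for its 5 deeper libraries, while every fit holds all 24 unless stated. A gene with 3 counts stood at 1.28 CPM in a library of median depth. The macrophage elastase Mmp12 stood at 3.26 CPM in the library labelled silica 1, against 57.0 to 73.6 CPM in the other silica libraries, and at 57.9 CPM in the library labelled smoke 1, against 3.64 to 11.9 CPM in the other deeper smoke libraries. The main calls that these libraries touch are given without them too. Air 6 stood apart in several members and had Col1a1, a fibroblast collagen, at 480 CPM, against a median of 108 CPM over the air group. Defining lung markers were present, with every listed alveolar type 1, alveolar type 2, endothelial and ciliated gene counted. The listed airway secretory genes were counted too, but Muc5ac had only 3 counts over all libraries and Bpifa1 was counted in 16 libraries.

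The sequences just before the start of 4 members are shown first, because 3 of them carried the firmest differences (Daam2, Fzd1 and Fzd4) and the fourth, Axin2, is the usual readout of the pathway. Each is the 250 bases before the start of the gene on its plus strand, 5′ to 3′, from RefSeq with build GRCr8: chr9:18926422-18926671 for Daam2, chr4:30264824-30265073 for Fzd1, chr1:152692257-152692506 for Fzd4 and chr10:94398535-94398784 for Axin2. Capitals mark matches, on either strand, to CTTTGAT or CTTTGAA, the core bases that Tcf and Lef proteins bind.
Daam2: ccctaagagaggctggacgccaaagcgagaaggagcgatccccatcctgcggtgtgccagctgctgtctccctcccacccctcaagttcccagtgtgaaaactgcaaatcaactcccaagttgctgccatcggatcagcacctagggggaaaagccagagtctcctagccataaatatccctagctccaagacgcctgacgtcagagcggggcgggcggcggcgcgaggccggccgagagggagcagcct
Fzd1: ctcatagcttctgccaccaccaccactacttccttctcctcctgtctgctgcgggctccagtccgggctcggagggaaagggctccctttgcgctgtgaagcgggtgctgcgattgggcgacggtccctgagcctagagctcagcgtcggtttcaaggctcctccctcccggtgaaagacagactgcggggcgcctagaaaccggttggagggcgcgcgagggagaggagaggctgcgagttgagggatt
Fzd4: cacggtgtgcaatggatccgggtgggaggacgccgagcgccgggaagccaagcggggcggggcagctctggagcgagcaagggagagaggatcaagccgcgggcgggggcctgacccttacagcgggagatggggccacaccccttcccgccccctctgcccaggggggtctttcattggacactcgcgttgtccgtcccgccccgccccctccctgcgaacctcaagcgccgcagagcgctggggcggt
Axin2: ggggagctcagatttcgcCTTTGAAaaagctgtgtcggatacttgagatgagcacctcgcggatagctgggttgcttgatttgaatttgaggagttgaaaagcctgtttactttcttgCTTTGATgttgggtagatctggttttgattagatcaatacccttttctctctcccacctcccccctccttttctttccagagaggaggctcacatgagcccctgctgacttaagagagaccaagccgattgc
The Axin2 window held 2 matches, and those of Daam2, Fzd1 and Fzd4 held 0. Of all 33469 RefSeq windows of this length, 3.15% held CTTTGAT, 4.68% held CTTTGAA and 7.58% held either, on either strand. Among the 39 members with a window, 4 held a match (10.3%): Axin2, Dkk1, Dkkl1 and Wnt8a. The bases were 61.6% G or C in the Daam2 window, 63.6% in that of Fzd1, 71.6% in that of Fzd4 and 47.6% in that of Axin2, against a median of 51.2% over all windows.

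What the lung transcribed of the pathway was uneven between roles. All 8 transducers and 9 of 12 receptors passed the filter, against 9 of 19 ligands, 5 of 9 genes of the R-spondin axis and 2 of 10 secreted inhibitors. Dkk1, Dkkl1, Wnt1, Wnt8a and Wnt8b had no count in any library, and 15 members in all had under 10 counts over the 24 libraries. In 1 library of median depth a count of 0 allows up to 1.28 CPM, so low expression of these genes was not detectable within 1 library. Their limit over all 24 libraries together is lower and was not calculated. Among members that failed the filter, the best counted were Sfrp2 with 326 counts, Dkk2 with 195, Notum with 136, Rspo3 with 120 and Lgr5 with 100 over all libraries. Rspo2 had 72 counts, Sfrp4 55, Wnt9b 42, Wnt7b 28 and Fzd10 24. The 10 others that had any count but under 10 were Dkk4, Fzd7, Fzd9, Rspo4, Sfrp5, Wnt10a, Wnt10b, Wnt16, Wnt3 and Wnt6. Tcf7l2 and Tcf7l2-2 are separate lines under 1 gene identifier, so their counts may be split and are uncertain. Neither was called by edgeR with all 24 libraries.

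The 3 comparisons with air asked what silica, smoke and both together changed. In combined lungs 8 of the 33 tested members passed edgeR's quasi-likelihood test at a Benjamini-Hochberg adjusted p under 0.05. The formin Daam2 and the ligase Rnf43 were higher, and the receptors Fzd1, Fzd4 and Fzd3, the ligand Wnt5a, the R-spondin receptor Lgr4 and the factor Lef1 were lower. In this comparison 11.6% of all tested genes were called higher and 10.8% lower, so a total of 8 of 33 is close to the share of all genes. The median log2 fold change over the 33 was -0.22, against -0.01 over all tested genes, and 21 of 33 were below 0, beside 51.4% of all tested genes. In silica lungs 1 member was called lower, Fzd1, and 0 higher, where 2.15% of all genes were called higher and 1.01% lower. In smoke lungs 0 members were called, where 0.0976% of all genes were called higher and 0.0525% lower. There 3 members had an unadjusted p under 0.05, and DESeq2 and limma-voom with quality weights also called 0.

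**Figure D1:**
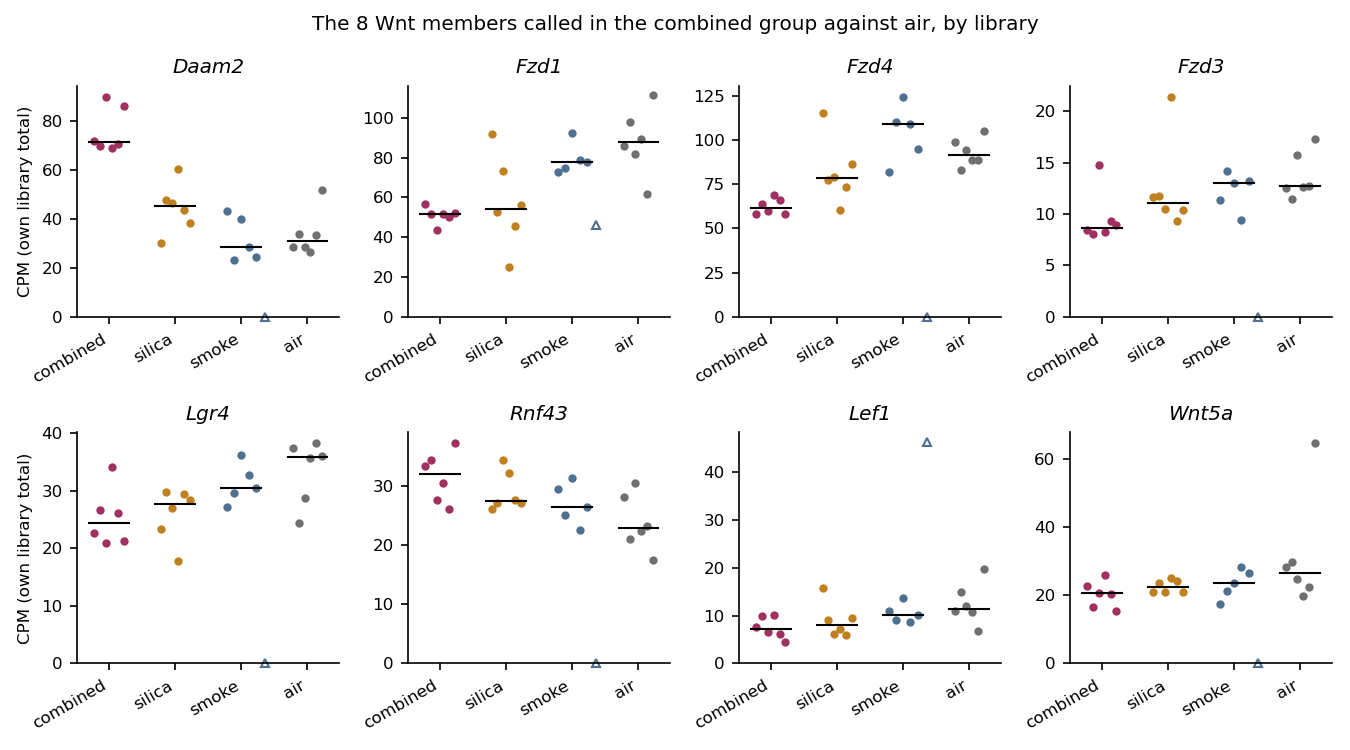
Levels in CPM in each library for the 8 members called in combined against air, with combined, silica, smoke and air from left to right, bars at the median and an open triangle for smoke 2 (left out of its median). All 6 combined libraries lie at 69.1 CPM or more for Daam2, and every other library lies at 60.6 CPM or less.

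Daam2 (gene identifier 316201), a formin that binds Dishevelled and builds actin filaments, had the largest log2 change of the members. Its lowest, median and highest values were 69.1, 71.4 and 89.8 CPM in combined libraries, 30.3, 45.3 and 60.6 CPM in silica libraries, 23.2, 28.4 and 43.2 CPM in the deeper smoke libraries and 26.3, 31.0 and 51.8 CPM in air libraries. Every combined library stood above every library of the other groups. The log2 fold change was 1.2005 ± 0.16 (standard error) for combined minus air, a 2.30-fold higher level (edgeR adjusted p = 5.0e-06, n = 6 and 6). It was 0.87 ± 0.16 for combined minus silica (adjusted p = 0.00821) and 1.28 ± 0.17 for combined minus smoke (adjusted p = 3.69e-05). For combined minus silica, 0.12% of all genes were called higher and 0.128% lower, and Daam2 was the 1 member called. All 3 calls held under each of the 34 alternative analyses, with log2 values from 1.13 to 1.39, from 0.77 to 0.91 and from 1.19 to 1.44 in that order.

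Neither exposure alone gave a called difference in Daam2 by edgeR with all 24 libraries. The log2 fold change was 0.34 ± 0.17 for silica minus air (edgeR adjusted p = 0.293; limma-voom with quality weights gave 0.51 and called it, adjusted p = 0.0326) and -0.08 ± 0.18 for smoke minus air (adjusted p = 0.956). The library labelled silica 1 was the lowest of the silica group at 30.3 CPM, the highest (silica 4) rested on 17 counts, and the library labelled smoke 1 the highest of the smoke group at 43.2 CPM. Without silica 1, smoke 1 and smoke 2 the silica difference was 0.42 (adjusted p = 0.0926), and without air 6 as well it was 0.62 and was called (adjusted p = 0.00242). The interaction, which asks whether the log2 effect of both exposures differs from the sum of their log2 effects, was 0.95 ± 0.24 for Daam2 (unadjusted p = 4.37e-04, adjusted p = 0.334). It stayed between 0.76 and 1.10 under the alternatives and was called under none of the 33 that could give it.

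Macrophage markers were higher in the same lungs: 6 of 9 were higher and 0 lower in combined than in air lungs. Their summed level was 2294 to 2912 CPM in combined libraries, 1036 to 2257 in silica libraries, 1033 to 1665 in the deeper smoke libraries and 571 to 1699 in air libraries. Of 9 alveolar type 2 markers, 4 were higher and 0 lower, with a summed median of 29321 CPM in combined and 19104 CPM in air libraries. Of 6 neutrophil markers, 5 were higher and 0 lower. Calls of markers and of Daam2 coincided in some comparisons and not in others. In combined minus smoke edgeR called Daam2 higher and also macrophage markers, among them Mmp12 (log2 fold change 2.31) and Spp1 (3.99). In smoke minus air it called neither Daam2 nor a macrophage marker. In silica minus air edgeR called macrophage markers higher, among them Mmp12 (log2 fold change 3.00) and Spp1 (4.39), and none lower. Daam2 was not called there by edgeR but was by limma-voom with quality weights (0.51, adjusted p = 0.0326). In combined minus silica Daam2 was called and no listed macrophage, neutrophil or type 2 marker was. No listed macrophage, neutrophil or type 2 gene was at 0 in all libraries. The macrophage gene Marco (10 counts over all libraries) and the neutrophil genes Mpo (2) and Elane (3) were too low to be tested. The part of these cells in the level of Daam2 was not tested, and in whole tissue more cells of a type and more RNA per cell cannot be told apart.

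The closest relative showed no such difference. Daam1, the other formin of the pair, had 189.6, 204.4 and 232.3 CPM (lowest, median, highest) in combined libraries and 207.8, 244.4 and 258.1 CPM in air libraries. The groups overlapped, and its log2 fold change of -0.17 ± 0.09 was not called (edgeR adjusted p = 0.173). The other transducers gave 1 further call.

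Lef1, an HMG-box factor that pairs with beta-catenin, had 4.46, 7.16 and 10.1 CPM in combined libraries and 6.74, 11.4 and 19.8 CPM in air libraries. The groups overlapped, and the log2 fold change of -0.74 ± 0.24 was called (edgeR adjusted p = 0.0278). Air 6 held the highest value, and without it the change was -0.53 and not called (adjusted p = 0.116). Leaving out air 2, combined 3, combined 5 or combined 6 also ended the call, with changes from -0.71 to -0.65, and DESeq2 did not call it (-0.74, adjusted p = 0.168). The T and NK cell markers, cells in which Lef1 is known to act, had 2 of 11 higher and 0 lower, with a summed median of 181 CPM in combined and 170 CPM in air libraries.

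Axin2, the feedback inhibitor that beta-catenin switches on, was not called by edgeR in any comparison with all 24 libraries. Its lowest, median and highest values were 63.7, 76.1 and 85.4 CPM in combined libraries, 60.6, 74.2 and 81.7 CPM in silica libraries, 70.0, 94.0 and 109 CPM in smoke libraries and 67.6, 72.7 and 89.0 CPM in air libraries. The log2 fold change for combined minus air was 0.05 ± 0.10, with a 95% interval of -0.16 to 0.27 (edgeR adjusted p = 0.780). For smoke minus air it was 0.29 ± 0.11 (unadjusted p = 0.0107, adjusted p = 0.412), and 0.40 with silica 1, smoke 1 and smoke 2 removed (adjusted p = 0.106). For combined minus smoke it was -0.24 ± 0.11 (adjusted p = 0.145), which was called with limma-voom (-0.29, adjusted p = 0.0403), without smoke 1 (-0.33, adjusted p = 0.0305) and once silica 1, smoke 1 and smoke 2 were removed (-0.35, adjusted p = 0.0127). Tcf7l1, a Tcf factor that mainly represses, had the other larger value in smoke lungs, 0.58 ± 0.19 (unadjusted p = 0.00591, edgeR adjusted p = 0.331), and 0.70 with silica 1, smoke 1 and smoke 2 removed (adjusted p = 0.222). Tcf7, a factor of T cells and stem cells, was at 40.0 CPM in combined and 39.6 CPM in air libraries (medians).

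Frizzled receptors gave 3 of the 6 lower calls. Fzd4 (gene identifier 64558), a receptor for Wnts and for norrin that is known for its role in blood vessels, had 57.9, 61.6 and 69.1 CPM in combined libraries, 60.6, 78.3 and 115 CPM in silica libraries, 82.0, 109 and 124 CPM in the deeper smoke libraries and 83.3, 91.8 and 105 CPM in air libraries. Every combined library lay below every air library and every deeper smoke library, and the ranges of combined and silica libraries overlapped. The log2 fold change was -0.54 ± 0.11 for combined minus air (edgeR adjusted p = 7.12e-04) and -0.70 ± 0.12 for combined minus smoke (adjusted p = 5.07e-04). Both calls held under each of the 34 alternatives.

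Beside those calls, combined minus silica gave -0.43 ± 0.12 for Fzd4 (unadjusted p = 8.79e-04, edgeR adjusted p = 0.106), and of the alternatives limma-voom called it (adjusted p = 0.0369). The highest silica value, 115 CPM, was in the library labelled silica 1, and the lowest of the deeper smoke values, 82.0 CPM, in the library labelled smoke 1. Without silica 1, smoke 1 and smoke 2 the difference from smoke was -0.80 and that from silica -0.32 (adjusted p = 0.144). The interaction for Fzd4 was -0.58 ± 0.16 (unadjusted p = 0.00110, adjusted p = 0.346), and it passed the threshold only among the alternatives run when air 6, silica 1, smoke 1 and smoke 2 were all removed (-0.60, adjusted p = 0.0286).

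Endothelial markers moved the same way as Fzd4. In combined lungs 6 of 10 were lower and 0 higher than in air lungs, and 6 of 10 were lower and 0 higher than in smoke lungs. Their summed level was 3030 to 3494 CPM in combined libraries, 3223 to 5155 in silica libraries, 4218 to 5080 in the deeper smoke libraries and 4122 to 5330 in air libraries. Pecam1, an adhesion molecule of endothelial cells, had a log2 fold change of -0.41 against air and -0.40 against smoke, with edgeR adjusted p of 0.00121 against air and 0.00543 against smoke. The part of endothelial content in the level of Fzd4 was not tested.

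Fzd1 (gene identifier 58868), a receptor able to signal through beta-catenin, had 43.5, 51.6 and 56.5 CPM in combined libraries, 25.0, 54.2 and 91.8 CPM in silica libraries, 73.0, 77.9 and 92.4 CPM in the deeper smoke libraries and 61.4, 87.6 and 112 CPM in air libraries. Combined libraries lay below all air and all deeper smoke libraries, while the silica libraries spread over both ranges. The log2 fold change was -0.75 ± 0.14 for combined minus air (edgeR adjusted p = 3.24e-04) and -0.60 ± 0.15 for combined minus smoke (adjusted p = 0.00884), and both calls held under the 34 alternatives.

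For silica minus air Fzd1 had -0.50 ± 0.14 (edgeR adjusted p = 0.0470). This call was lost under 22 of the 34 alternatives, among them the removal of any 1 library other than air 5, silica 1, smoke 1, smoke 2 or smoke 4, with an adjusted p of up to 0.176 without silica 5. Among silica libraries the library labelled silica 1 was the highest at 91.8 CPM. The lowest, silica 4 at 25.0 CPM, rested on 7 counts. Without silica 1, smoke 1 and smoke 2 the difference was -0.68 (adjusted p = 0.00162), and without silica 4 and smoke 2 it was -0.45 (adjusted p = 0.0698). Combined and silica lungs did not differ by test in Fzd1 (-0.25 ± 0.15, adjusted p = 0.496, 95% interval -0.56 to 0.06).

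Fzd3, a receptor known for planar polarity, had 8.04, 8.67 and 14.7 CPM in combined libraries and 11.5, 12.7 and 17.3 CPM in air libraries. Its difference of -0.46 ± 0.17 was called (edgeR adjusted p = 0.0433) but was lost under 18 of 34 alternatives, among them the removal of air 6 (-0.38, adjusted p = 0.116) and, singly, of air 1, 3 or 5, silica 2 or 6, smoke 1, 3 or 6, or any combined library but combined 3, with changes from -0.48 to -0.39. With all 24 libraries edgeR called none of the remaining receptors in any comparison. Fzd8, a further frizzled receptor, had -0.52 for combined minus smoke (adjusted p = 0.124), and it was called without smoke 1 (-0.72), without combined 5 (-0.70) and with limma-voom (-0.59). Lrp5 and Lrp6 were called lower in silica minus air once silica 1, smoke 1 and smoke 2 were removed, and Lrp6 also in combined minus air. Lrp6, a co-receptor that takes up the Wnt signal with frizzled, had medians of 289.1 CPM in combined, 289.4 CPM in silica, 322.8 CPM in smoke and 326.0 CPM in air libraries. Every combined library lay below every air library in Lrp6, yet the change was small (-0.18 ± 0.10, adjusted p = 0.227). Its close relative Lrp5 had medians of 146.8 CPM in combined and 155.6 CPM in air libraries (-0.05 ± 0.08, adjusted p = 0.683). Fzd2, which is able to bind Wnt5a, had medians of 25.8 and 34.4 CPM in combined and air libraries (-0.31 ± 0.13, adjusted p = 0.0896), and Fzd6, which can oppose beta-catenin signalling, had 48.1 and 42.8 CPM (0.15 ± 0.11, adjusted p = 0.339).

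**Figure D2:**
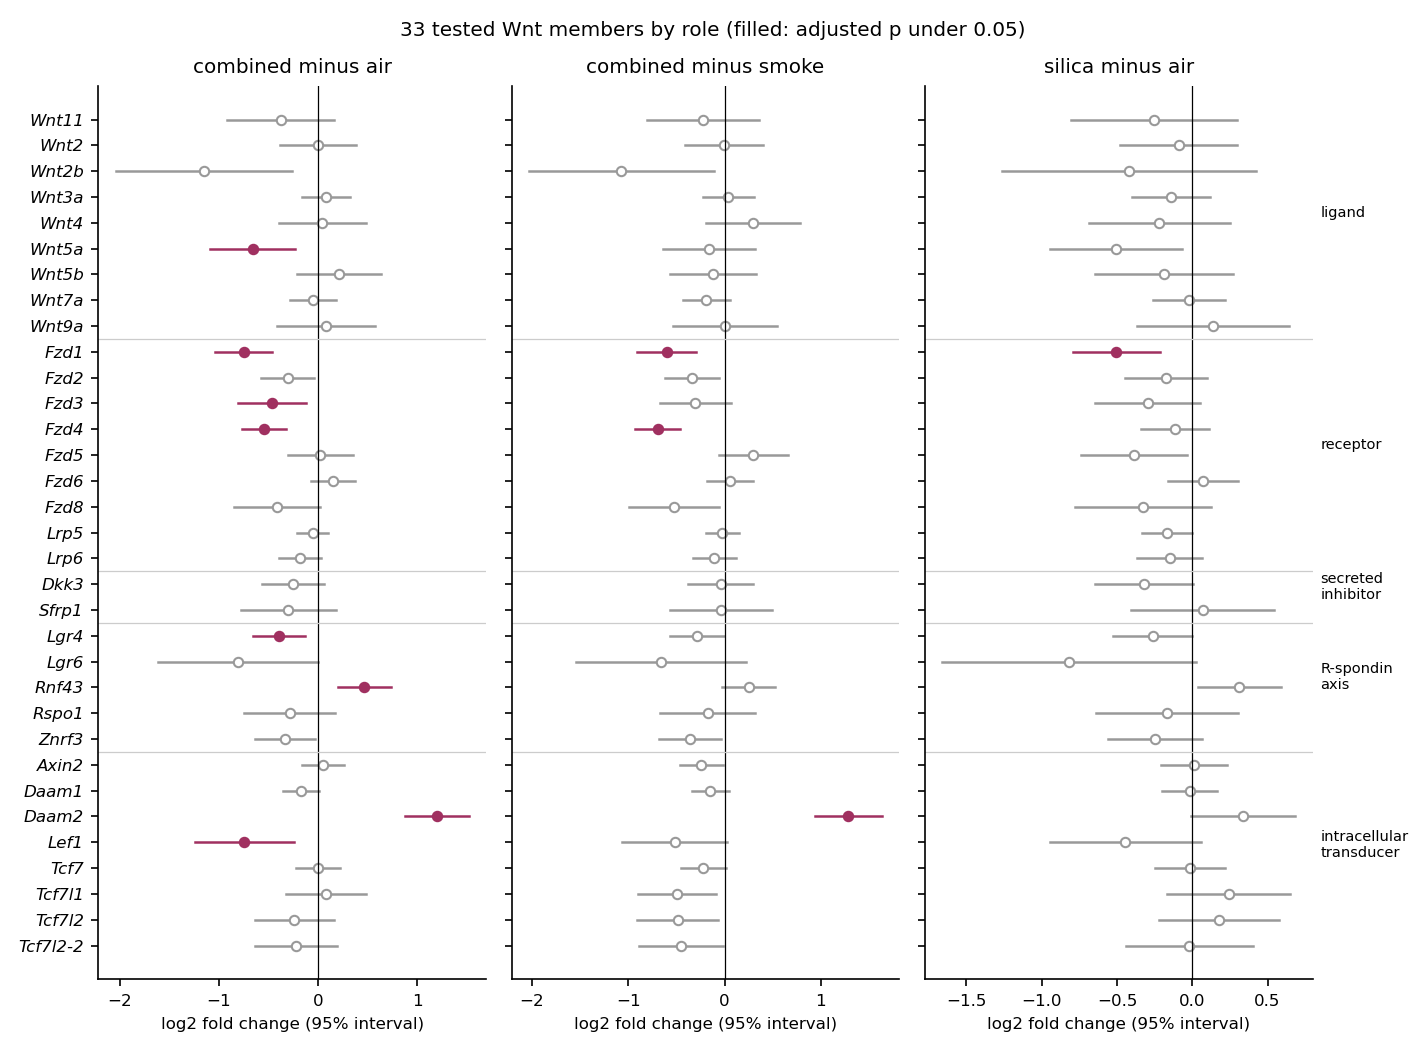
Log2 fold changes with 95% intervals of the 33 tested members, grouped by role from ligands at the top to transducers at the bottom, for combined minus air, combined minus smoke and silica minus air (each panel has its own scale). Filled points passed an adjusted p of 0.05; Daam2 stands apart to the right at 1.2005 and 1.28 in combined minus air and combined minus smoke, and frizzled receptors make up 3 of the 6 lower calls in combined minus air.

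The R-spondin axis held 1 higher and 1 lower call. Rnf43, a membrane ligase that removes frizzled receptors from the cell surface, had 26.1, 31.9 and 37.1 CPM in combined libraries and 17.5, 22.8 and 30.4 CPM in air libraries. The groups overlapped, and the log2 fold change was 0.47 ± 0.13 (edgeR adjusted p = 0.00905). Of the alternatives, DESeq2 did not call it (adjusted p = 0.104). Its partner ligase Znrf3 went to the other side of 0: it had 9.22, 12.5 and 14.4 CPM in combined libraries and 15.1, 16.2 and 17.2 CPM in air libraries, groups that did not overlap, with a difference of -0.33 ± 0.15 that was not called (adjusted p = 0.106).

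Lgr4, an R-spondin receptor, had 20.99, 24.4 and 34.1 CPM in combined libraries and 24.4, 35.9 and 38.2 CPM in air libraries. The ranges overlapped, and the change of -0.39 ± 0.13 (edgeR adjusted p = 0.0250) was lost under 6 of 34 alternatives, DESeq2 among them (adjusted p = 0.144). The others were the removal of air 1, of air 5, of combined 1, of combined 3 and of combined 6, where the change ran from -0.36 to -0.34. Rspo1, the tested ligand of this axis, had medians of 11.3 CPM in combined and 16.3 CPM in air libraries (-0.29 ± 0.22, adjusted p = 0.389).

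Over the 9 tested Wnt ligands the median log2 fold change was 0.0006 for combined minus air, with 4 below 0. It was -0.19 for silica minus air, with 8 below 0, and -0.12 for combined minus smoke, with 6 below 0. Of all tested genes 51.4% were below 0 for combined minus air, 51.0% for silica minus air and 49.7% for combined minus smoke. The 9 tested receptors had a median of -0.31 for combined minus air. Wnt5a, a ligand that acts mainly outside beta-catenin, was the 1 ligand called, with 15.3, 20.5 and 25.8 CPM in combined libraries, 20.8, 22.2 and 25.0 CPM in silica libraries, 17.4, 23.5 and 28.4 CPM in smoke libraries and 19.7, 26.4 and 64.4 CPM in air libraries. The change of -0.66 ± 0.21 (edgeR adjusted p = 0.0241) rested on air 6, whose 64.4 CPM was far above the next air value of 29.7 CPM. Without air 6 it was -0.27 and was not called (adjusted p = 0.185). Without combined 2 it was -0.59 and without combined 6 -0.60, neither called. With air 6 kept, DESeq2 (-0.63, adjusted p = 0.0788), limma-voom (-0.31, adjusted p = 0.1101) and only the groups compared (-0.66, adjusted p = 0.0705) did not call it.

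Wnt2b, a ligand needed with Wnt2 for lung formation in mice, had the largest log2 change of the 9 tested ligands and the fewest counts among them, 178 over all libraries. Its lowest, median and highest values were 0.733, 1.56 and 3.68 CPM in combined libraries and 1.49, 4.42 and 6.37 CPM in air libraries, close to the level of 3 counts. The change of -1.15 ± 0.43 was not called (edgeR adjusted p = 0.0566), and it was called under 5 of 32 alternatives. Wnt3a, a beta-catenin ligand, had medians of 37.2 CPM in combined and 37.3 CPM in air libraries, and Wnt7a, a ligand of epithelium, 29.2 and 30.9 CPM. Wnt2, a mesenchymal ligand, had 12.6 and 13.2 CPM. None of these was called in any comparison, and the 95% intervals for combined minus air were -0.16 to 0.33 for Wnt3a, -0.28 to 0.19 for Wnt7a and -0.39 to 0.39 for Wnt2. The other tested ligands, Wnt4, Wnt5b, Wnt9a and Wnt11, were not called either, with log2 changes between -0.37 (Wnt11) and 0.22 (Wnt5b) for combined minus air.

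Secreted inhibitors were mostly too low to be tested. Dkk3, a divergent Dickkopf protein, had 40.9, 46.1 and 63.5 CPM in combined libraries and 48.3, 51.7 and 102 CPM in air libraries (-0.25 ± 0.15, edgeR adjusted p = 0.262). Sfrp1, which binds Wnts outside the cell, had medians of 5.51 CPM in combined and 6.66 CPM in air libraries (-0.30 ± 0.23, adjusted p = 0.389). Air 6 held the top air values of Dkk3 and of the untested Sfrp2, where it had 30.3 CPM and the other air libraries at most 4.17 CPM. Fibroblast markers summed to 6360 CPM in air 6 and to a median of 1534 CPM over the air group, against 1175 to 1309 CPM in combined libraries, and 5 of 7 were lower and 0 higher in combined than in air lungs. Smooth muscle (3 of 7), alveolar type 1 (4 of 8) and ciliated markers (4 of 8) were also lower in combined than in air lungs, with 0 higher. Their part in these members was not tested.

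**Figure D3:**
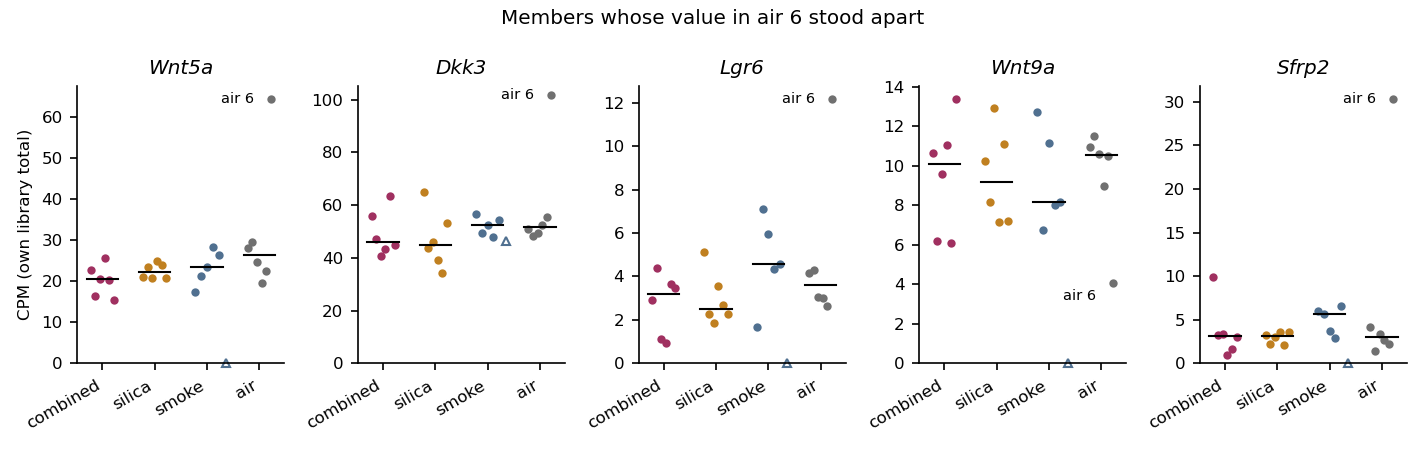
Levels in CPM in each library of 5 members in which air 6 stood apart, with combined, silica, smoke and air from left to right, bars at the median and an open triangle for smoke 2. Air 6 is the highest air library in Wnt5a (64.4 CPM), Dkk3 (102 CPM), Lgr6 (12.2 CPM) and Sfrp2 (30.3 CPM) and the lowest in Wnt9a (4.05 CPM).

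The comparisons within smoke-exposed and within silica-exposed lungs asked what each exposure added to the other. Against smoke, 1 member was higher in combined lungs (Daam2) and 2 were lower (Fzd1 and Fzd4), where 7.34% of all genes were called higher and 5.57% lower. The median log2 fold change of the members was -0.19, against 0.002 over all genes, and 26 of 33 were below 0, beside 49.7% of all tested genes. Without silica 1, smoke 1 and smoke 2 there were 7 calls, with Axin2, Fzd8, Tcf7l1 and Tcf7l2-2 added on the lower side. In that fit 2751 of 13666 tested genes were called, so 7 of 33 is close to the share of all genes. In the interaction 0% of all genes were called higher and 0% lower by edgeR, with 977 genes and 5 members at an unadjusted p under 0.05. The members were Daam2, Fzd4, Fzd5, Tcf7l1 and Tcf7l2. DESeq2 called 1 gene and limma-voom 9 genes, with 0 members among them.

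Silica was set against its absence in separate animals, as silica minus air and as combined minus smoke, so that the comparisons share no library. Of the 33 members 26 had the same sign in both (78.8%), and 22 of these were below 0 in both. Over all 13322 tested genes the share with the same sign was 68.4%, and 4604 genes were below 0 in both. Members lay mostly below 0 in each comparison, 25 of 33 in silica minus air and 26 of 33 in combined minus smoke. Such a lean by itself raises the share with the same sign. The correlation of the log2 values was lower in members than in all genes (Pearson 0.47 against 0.54, Spearman 0.37 against 0.52). Fzd1 had -0.50 and -0.60, Wnt2b -0.42 and -1.07, Lgr6 (an R-spondin receptor) -0.82 and -0.66, and Daam2 0.34 and 1.28. The share of members stayed at 78.8% without silica 1, smoke 1 and smoke 2, and ran from 66.7% to 84.8% over all alternatives. The lowest was without air 1, where 66.8% of all genes had the same sign, and the highest without air 4. Smoke, set against its absence as smoke minus air and combined minus silica, gave the same sign in 18 of 33 members (54.5%) and in 55.4% of all genes.

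**Figure D4:**
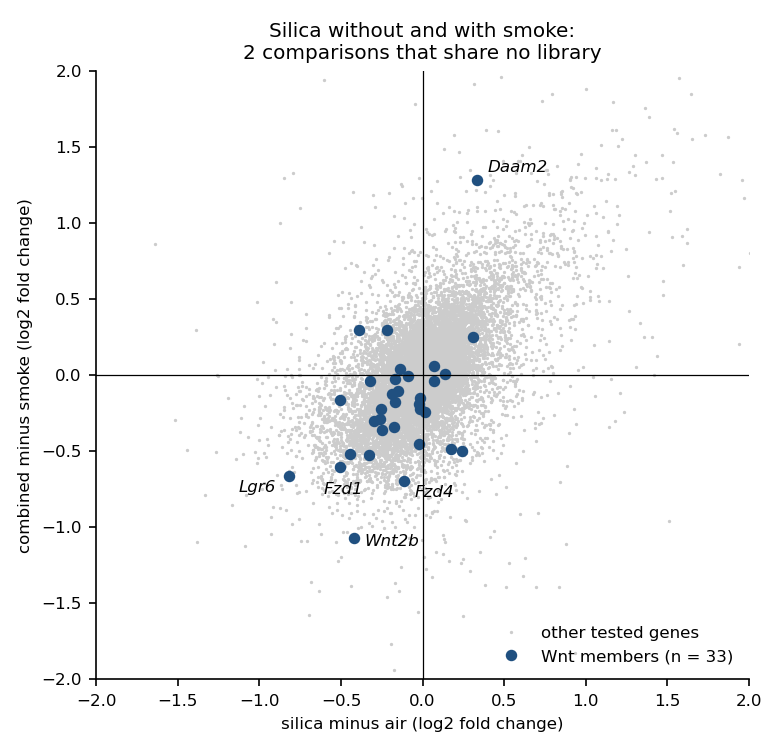
Log2 fold changes of silica minus air (x axis) and combined minus smoke (y axis) for the 33 tested members (blue) over the other tested genes (grey; genes beyond 2 on either axis are not drawn). Most members, 22 of 33, lie below 0 on both axes, and Daam2 lies alone at the top of the members.

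Other genes of the pathway, outside the symbols that chose the members, were read from 4 lists. Of 18 tested genes of Wnt secretion and extracellular control, 2 were higher and 8 lower in combined than in air lungs, where 11.6% of all tested genes were higher and 10.8% lower. Their median log2 fold change was -0.41. Fibroblast markers had 5 of 7 lower in the same lungs, and their part in these genes was not tested. Reck, a membrane protein that acts as a co-receptor for Wnt7 proteins, had 54.4, 66.4 and 77.5 CPM in combined libraries and 99.97, 109.8 and 139 CPM in air libraries. The groups did not overlap (-0.74 ± 0.12, edgeR adjusted p = 6.85e-05). Adgra2, its partner, is listed under the locus name LOC100363275, matched through the RefSeq gene table, and was picked after its values were seen. It had a change of -0.57 ± 0.15 (adjusted p = 0.00476) in combined and -0.54 ± 0.15 in silica lungs (adjusted p = 0.0430). Leaving out air 6 gave -0.36 in combined lungs, still called (adjusted p = 0.0170), and -0.32 in silica lungs, not called (adjusted p = 0.126). The silica call was lost under 17 of 34 alternatives, also without any 1 of silica 2 to 6, air 1, smoke 3, smoke 5 or a combined library other than combined 4. It was -0.66 with silica 1, smoke 1 and smoke 2 removed (adjusted p = 0.00571).

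Gpc3, a heparan sulphate proteoglycan that binds Wnts, had 141 to 216 CPM in combined libraries and 279 to 412 CPM in air libraries, again without overlap (-0.75 ± 0.13, edgeR adjusted p = 2.01e-04). Wif1, a secreted Wnt inhibitor, had 42.6, 45.3 and 52.7 CPM in combined libraries, 42.8, 47.3 and 49.7 CPM in silica libraries and 57.3, 64.9 and 167 CPM in air libraries. The changes from air were -0.79 ± 0.19 in combined lungs (adjusted p = 0.00255) and -0.76 ± 0.19 in silica lungs (adjusted p = 0.0268). The size rested on air 6: without it the changes were -0.42 in combined and -0.39 in silica lungs, both still called (adjusted p = 0.00253 and 0.0398). The silica change was -0.78 with silica 1, smoke 1 and smoke 2 removed. The silica call was lost without silica 2, 3, 5 or 6, with changes from -0.76 to -0.75, and with only the groups compared (adjusted p = 0.119). Sulf1, a sulphatase that edits heparan sulphate, had -0.62 ± 0.14 (adjusted p = 0.00178). The 2 genes of this list that were higher were Cthrc1 and Sulf2, a sulphatase related to Sulf1. Sulf2 had 0.35 ± 0.12 (edgeR adjusted p = 0.0294). Cthrc1 had 0.96 ± 0.28 (adjusted p = 0.0129), with low medians of 5.98 CPM in combined and 3.02 CPM in air libraries. These calls were not followed in the alternatives. Wls, the carrier that secretes Wnts, and Igfbp4, which can bind frizzled, were not called, at -0.19 ± 0.09 and -0.15 ± 0.13. The sign of Igfbp4 turned without air 6.

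Of 35 tested genes of the destruction complex and of transduction, 2 were higher and 6 lower, a total near the share of all genes (11.6% higher and 10.8% lower), with a median of -0.10. Usp8, a deubiquitinase that returns frizzled to the surface, had 292 to 333 CPM in combined libraries and 187 to 255 CPM in air libraries (0.53 ± 0.11, edgeR adjusted p = 6.02e-04). The co-repressor Tle1 (-0.54 ± 0.11, adjusted p = 9.81e-04), the feedback inhibitor Nkd1 (-0.38 ± 0.09, adjusted p = 0.00303) and the kinase Csnk1e (-0.39 ± 0.11, adjusted p = 0.00841) were lower. DESeq2 did not call Csnk1e (-0.40, adjusted p = 0.0614). Ctnnb1, which encodes beta-catenin itself, had 511 to 610 CPM in combined libraries and 491 to 630 CPM in air libraries (0.12 ± 0.08, adjusted p = 0.271), and the scaffold Apc had -0.12 ± 0.10 (adjusted p = 0.430).

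Of 27 tested genes of the planar polarity and calcium branch, 0 were higher, against 11.6% of all genes, and 3 lower, near the 10.8% of all genes. The 3 were Invs, a ciliary inhibitor of Dishevelled (-0.66 ± 0.17, edgeR adjusted p = 0.00455), the core polarity gene Prickle1 (-0.32 ± 0.11, adjusted p = 0.0394) and Ryk, a Wnt co-receptor (-0.28 ± 0.09, adjusted p = 0.0303). Prickle2 was called against smoke (-0.47 ± 0.13, adjusted p = 0.0140) and not against air. The call of Prickle1 against air was lost under 13 of 34 alternatives and that of Ryk under 8. Single libraries that ended the first were air 1, 2, 3, 5 and 6, smoke 3 and combined 1, 2, 3 and 6 (-0.33 to -0.28), those that ended the second were air 2 and 4 and combined 1 to 5 (-0.27 to -0.25), and without smoke 4 Prickle2 was at -0.42 and not called. Rhoa and Rock2, which carry the signal to the skeleton, were not called, at 0.07 ± 0.08 and -0.18 ± 0.10.

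Of 20 tested genes reported as beta-catenin targets, 2 were higher and 4 lower in combined than in air lungs, beside 11.6% and 10.8% of all genes, with a median of -0.28. The higher ones were the hyaluronan receptor Cd44, with 543 to 627 CPM in combined libraries and 289 to 416 CPM in air libraries (0.80 ± 0.13, edgeR adjusted p = 5.77e-05), and the urokinase receptor Plaur (1.14 ± 0.25, adjusted p = 0.00120). Both are also known in activated macrophages, whose markers were higher in the same lungs. The part of macrophages in the levels of Cd44 and Plaur was not tested. Cd44 was also called higher in silica minus air (0.55 ± 0.13, edgeR adjusted p = 0.0199), a call lost under 4 of 34 alternatives. It was higher in combined minus smoke too (0.65 ± 0.14, adjusted p = 0.00286). Plaur was higher in combined minus smoke (0.91 ± 0.26, adjusted p = 0.0198), a call lost under 4 of 34 alternatives. Nkd1 stands in this list as well. Cyr61, a matrix protein, was lower against smoke (-1.37 ± 0.37, adjusted p = 0.0149) and not called against air. Without smoke 1 it was -1.05 and without smoke 3 -1.25, neither called, nor did DESeq2 (adjusted p = 0.0568) or limma-voom (-1.02, adjusted p = 0.0563) call it. Ccnd1, the cell cycle target named most often, had 0.01 ± 0.08 (adjusted p = 0.982), and Jun, a component of the AP-1 factor, had -0.32 ± 0.13 (adjusted p = 0.0896). Of the other genes named from these 4 lists, Reck, Adgra2 and Prickle1 were also called lower and Usp8 and Cthrc1 higher in combined minus smoke. In smoke minus air, in combined minus silica and in the interaction, 0 genes of these 4 lists were called.

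**Figure D5:**
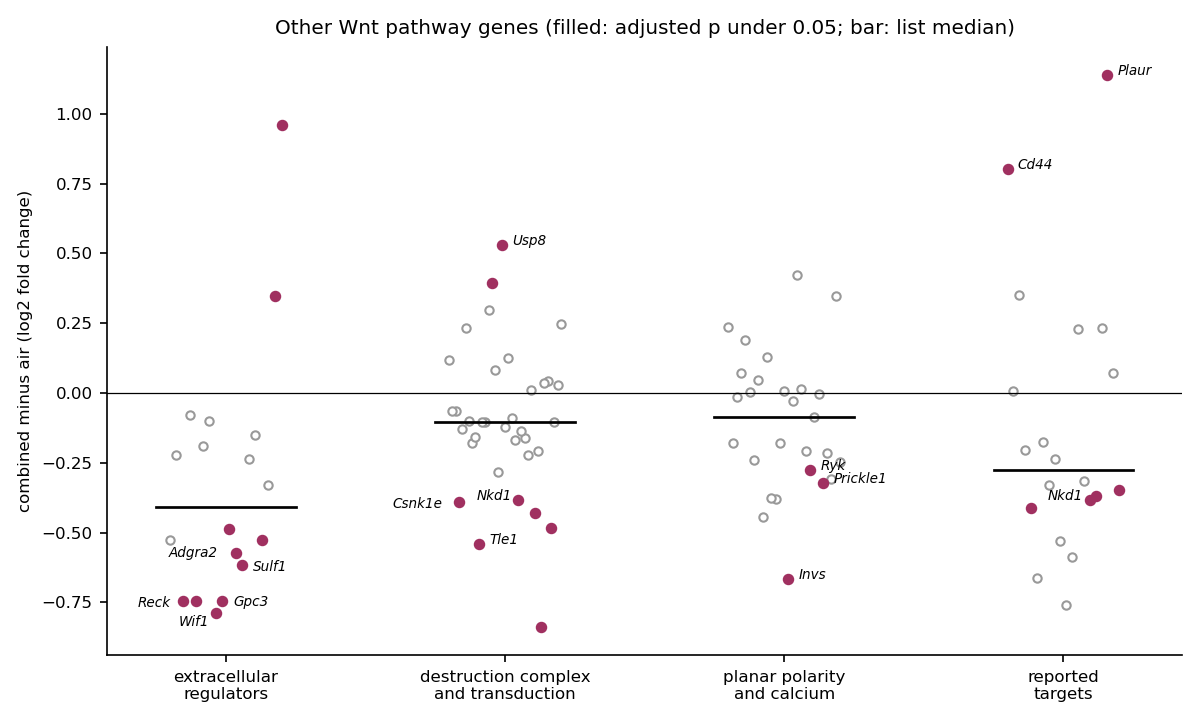
Log2 fold changes of combined minus air for the tested genes of 4 other Wnt pathway lists, with a bar at each list's median and filled points for an adjusted p under 0.05. The extracellular regulators have the lowest median (-0.41), with Wif1, Gpc3 and Reck among the lowest, while Plaur (1.14) and Cd44 (0.80) stand above the other reported targets.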

How the data were processed

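Total RNA of lung tissue was depleted of ribosomal RNA and sequenced with a stranded kit, per the labels' protocols. The authors deposited raw counts of reads for each gene. The tools, per the submitters' processing notes, included HTSeq 0.11.2, HISAT2 2.1.0, Trimmomatic 0.35, SAMtools 1.8, bcl2fastq 2.19 and Cufflinks. Strand setting, annotation and build: not given in the sources used here. Genes that overlap are therefore uncertain. Of 30069 lines, 26 repeated another and were removed. Library groups came from the labels, which name separate rats, and no 2 libraries of a group agreed within sampling noise. Libraries are numbered within a group in order of deposit.

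The analysis used edgeR 4.0.16 under R 4.3.3. All 24 libraries entered filterByExpr (minimum count 10), TMM scaling and 1 quasi-likelihood fit with the 4 groups as terms (20 residual degrees of freedom). Tests were two-sided and adjusted by Benjamini-Hochberg over all 13322 tested genes, with under 0.05 called. Values after ± are standard errors of log2 fold changes. P-values measure the spread between these libraries. CPM use each library's own total and are not divided by gene length, so levels of different genes are not compared. Intervals of log2 fold changes were built from the standard errors of the fit, so they also reflect the spread between these libraries. The floor of 3 counts covers counting error only. The members and lists were chosen with earlier results of these data known, so their counts are descriptions. Members called in any comparison were named with values, and of each pathway list up to 4 called genes and the 2 best counted ones not called. Adgra2, Cthrc1 and Sulf2 were named beyond that rule. Alternatives were RLE and upper-quartile scaling, DESeq2 1.42.0, limma-voom (limma 3.58.1) with quality weights, no filter, a minimum count of 30, only the groups compared, and removal of libraries singly or together. The fit was tested on simulated data. Promoter windows and names came from RefSeq tables of GRCr8.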

Additional observations from a re-analysis of the deposited data

Results flagged for a closer look

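Among the 33 tested members in 4 groups, with smoke 2 left out, 10 values lay far from the rest of their group by Dixon's test, which by chance picks about 1 group in 20. Of these, 5 were in air 6: Daam2 at 51.8 CPM, where the next air library had 34.0, Dkk3 at 101.8 CPM (next 55.4), Lgr6 at 12.2 CPM (next 4.31), Wnt5a at 64.4 CPM (next 29.7) and, as the lowest of its group, Wnt9a at 4.05 CPM (next 8.998). In silica libraries Fzd3 stood at 21.4 CPM in silica 4, which rests on 6 counts, and Lef1 at 15.9 CPM in silica 1. In combined libraries Fzd3 stood at 14.7 CPM in combined 3 and Fzd8 at 13.4 CPM in combined 5. In smoke libraries Fzd1 stood at 92.4 CPM in smoke 4. Each of these was the highest of its group except Wnt9a.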

How the results depend on the processing

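The calls of Daam2, Fzd1 and Fzd4 in combined minus air and combined minus smoke, and of Daam2 in combined minus silica, held under all 34 alternatives. No paired analysis was possible because the labels give no replicate numbers shared between groups.

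Counts of Wnt members called moved from the main values of 1 (silica minus air), 0 (smoke minus air), 8 (combined minus air), 1 (combined minus silica), 3 (combined minus smoke) and 0 (interaction), where all genes gave 422, 20, 2987, 33, 1720 and 0. With DESeq2 silica minus air gave 0 members and 189 genes, combined minus air 3 and 1665, combined minus smoke 823 genes, and the interaction 1 gene. With limma-voom and quality weights silica minus air gave 2 members and 909 genes, smoke minus air 72 genes, combined minus silica 2 members and 116 genes, combined minus smoke 10 and 3368, and the interaction 9 genes. With only the groups compared silica minus air gave 0 members and 91 genes, smoke minus air 5 genes, combined minus silica 100 genes and combined minus smoke 5 members. Without smoke 2 and silica 4 silica minus air gave 0 members, smoke minus air 12 genes and combined minus silica 58 genes. Without silica 1, smoke 1 and smoke 2 silica minus air gave 3 members and 1614 genes, and combined minus smoke 7 and 2751. Without air 6 as well, silica minus air gave 3 members and 1541 genes, smoke minus air 98 genes, combined minus silica 111 genes, combined minus smoke 10 members and 3402 genes, and the interaction 1 member (Fzd4) and 19 genes. The cause was not tested.

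With 1 library left out, silica minus air gave 0 to 1 members and 124 to 1183 genes (most without silica 1, fewest without silica 5), smoke minus air 6 to 42 genes (most without air 6), combined minus air 5 to 8 members (5 without combined 6) and 2361 to 3270 genes, combined minus silica 16 to 113 genes (most without air 6) and combined minus smoke 3 to 7 members (7 without smoke 1) and 905 to 2271 genes (fewest without smoke 3). Values near 0 turned sign. Ccnd1 in combined minus air was -0.01 with RLE (-0.00902), upper-quartile (-0.0113), DESeq2 (-0.00933) and without silica 1, smoke 1 and smoke 2 (-0.00677), and -0.00769 to 0.0356 with 1 library left out. Igfbp4 was 0.00629 with limma-voom, 0.0485 without air 6, silica 1, smoke 1 and smoke 2, and -0.21 to 0.0453 with 1 library left out. Fzd1 in the interaction was 0.0292 without silica 1, smoke 1 and smoke 2 and -0.18 to 0.0687 with 1 left out, and Daam2 in smoke minus air -0.23 to 0.11.

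Depth limits the low members: in smoke 2 a count of 0 allows up to 139 CPM, and in silica 4 up to 10.7 CPM.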
